A study of Mus musculus with 6 samples.

Results

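The genes described here are 9 genes of the actin cytoskeleton among the 49585 genes of the count table: the refilins Rflna and Rflnb, the filamins Flna and Flnc, the alpha-actinins Actn1 and Actn4, the smooth muscle actin gene Acta2, and the transgelins Tagln and Tagln2. They were chosen by name with their measured read counts in Zac1 and EGFP libraries known, so their differences are given as a description, with no p-value, and nothing is read from how many pass a threshold. AML12 is an immortalised hepatocyte line derived from a mouse transgenic for human transforming growth factor alpha. The Zac1 cells were AML12 transfected with an over-expression construct for Zac1 (gene symbol Plagl1), an imprinted zinc-finger transcription factor, and the EGFP control cells were transfected with an over-expression construct for EGFP, a fluorescent protein. PolyA RNA was sequenced 24 h after transfection from 3 Zac1 libraries (replicates 4, 5 and 6) and 3 EGFP libraries (replicates 1, 2 and 3). All 6 libraries come from 1 cell line, and the labels do not say that the libraries of a group were separate cultures. The p-values therefore rest on the spread between libraries alone, and that spread may be technical.

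Filamins are large dimeric proteins that crosslink actin filaments into networks and tie them to membrane receptors. Refilins are small vertebrate proteins that bind filamin A and turn it from a crosslinker of branched networks into an organiser of parallel bundles, among them the actin fibres that run over the nucleus. Alpha-actinins crosslink antiparallel filaments along stress fibres, transgelins are calponin-family proteins that bind along filaments, and Acta2 encodes the actin isoform of smooth muscle and of activated hepatic stellate cells.

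Library totals were 16104498, 17003713 and 18302538 reads in Zac1 libraries, against 15145092, 14885966 and 14801240 reads in EGFP libraries. Plagl1 stood at 6604, 7937 and 8072 CPM (read counts scaled to library size) in Zac1 libraries, against 2.60, 5.31 and 4.53 CPM in EGFP libraries, so the labels hold for the transfected gene. Of 12130 genes whose mean count reached 10, 459 (3.78%) passed an adjusted p of 0.05 in edgeR's quasi-likelihood test with Benjamini-Hochberg adjustment, 378 (3.12%) higher and 81 (0.668%) lower in Zac1 libraries. Every Zac1 library exceeded every EGFP library in 11.9% of those genes, and the groups did not overlap in 20.6%. Libraries EGFP 1 and Zac1 4 stood apart from the other 4 on the second principal component, which held 15.5% of the variance. Hepatocyte markers were present in part: Hnf4a, Apob, Krt8 and Krt18 were high, Alb averaged 34.7 CPM in both groups, and Apoa2 and Cyp2e1 had 0 reads in every library.

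The promoter windows of 4 genes are shown first because they cover both the genes that stood higher in Zac1 libraries (Rflnb and Flnc) and the alpha-actinins, whose groups overlapped. Each runs from 250 bases before to 50 bases after the RefSeq start site on GRCm38.p6, 5′ to 3′ on the gene's strand. Capitals mark GC boxes, GGGCGG or its complement, overlapping matches included.
Rflnb, chr11:76027733-76028032, minus strand: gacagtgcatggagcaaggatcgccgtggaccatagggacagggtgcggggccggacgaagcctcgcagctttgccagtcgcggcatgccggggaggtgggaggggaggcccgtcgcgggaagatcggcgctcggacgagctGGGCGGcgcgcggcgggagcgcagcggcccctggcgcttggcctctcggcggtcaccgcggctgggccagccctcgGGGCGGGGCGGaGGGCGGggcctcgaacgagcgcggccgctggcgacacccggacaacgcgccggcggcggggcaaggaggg
Flnc, chr6:29433006-29433305, plus strand: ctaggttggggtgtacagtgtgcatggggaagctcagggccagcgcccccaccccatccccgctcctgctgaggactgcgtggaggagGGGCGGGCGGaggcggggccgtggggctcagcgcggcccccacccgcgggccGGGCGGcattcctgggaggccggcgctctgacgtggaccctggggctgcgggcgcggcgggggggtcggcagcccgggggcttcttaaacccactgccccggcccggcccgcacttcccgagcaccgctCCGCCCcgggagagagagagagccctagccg
Actn1, chr12:80260314-80260613, minus strand: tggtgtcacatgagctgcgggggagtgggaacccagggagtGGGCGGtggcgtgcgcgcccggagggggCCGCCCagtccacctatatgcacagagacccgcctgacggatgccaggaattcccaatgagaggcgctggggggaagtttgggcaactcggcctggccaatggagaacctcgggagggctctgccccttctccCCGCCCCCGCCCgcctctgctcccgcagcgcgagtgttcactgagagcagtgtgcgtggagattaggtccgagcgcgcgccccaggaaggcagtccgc
Actn4, chr7:28962283-28962582, minus strand: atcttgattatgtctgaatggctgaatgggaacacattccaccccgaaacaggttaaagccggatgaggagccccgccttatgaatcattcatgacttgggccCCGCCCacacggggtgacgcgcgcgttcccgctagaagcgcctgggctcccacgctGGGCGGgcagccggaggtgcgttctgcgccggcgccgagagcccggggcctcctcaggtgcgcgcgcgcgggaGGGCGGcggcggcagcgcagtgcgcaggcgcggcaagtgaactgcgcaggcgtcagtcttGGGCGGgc

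Each of these 4 windows held 4 GC boxes, a number reached or passed by 5.49% of the 32851 promoter windows searched on both strands. The Rflnb boxes began at -108, -32, -27 and -20 from the start site, and the Flnc boxes began at -162, -158, -110 and 19. The Rflnb window was 77.0% GC with 44 CpG sites, the Flnc window 76.3% with 30, the Actn1 window 68.3% with 24 and the Actn4 window 68.0% with 35, against a median of 52.7% GC over all windows. GGGGCCCC, a palindrome of the GC-rich kind that Zac1 is known to bind, was in 0 of the windows of the 7 listed genes that had one and in 1.08% of all windows. Its shorter part GGGGCC occurred 3 times in the Rflnb window, 2 times in the Flnc window, 1 time in the Actn1 window and 2 times in the Actn4 window, and 25% of all windows held it. TATAAA was also in 0 of the listed genes' windows, against 13.6% of all windows. By number of GC boxes, the 4 windows shown did not set the genes that stood higher apart from the alpha-actinins. Among the windows not shown, those of Flna and Tagln2, whose groups also overlapped, held 3 GC boxes each. A second Flnc window, chr6:29432903-29433202, held 3 and the Acta2 window 0.

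Rflnb, which encodes refilin B, was the listed gene with the widest difference between the groups. It lies on chr11:76019194-76027782, minus strand (GRCm38, ENSMUSG00000020846). Rflnb had 301, 358 and 323 reads in Zac1 libraries, against 109, 80 and 80 reads in EGFP libraries. On the CPM scale the values were 18.7, 21.03 and 17.6 in Zac1 libraries and 7.26, 5.37 and 5.41 in EGFP libraries. All 3 Zac1 libraries stood above all 3 EGFP libraries, and the lowest Zac1 value was more than the highest EGFP value by a margin wider than either group's range. The mean was 19.1 ± 1.76 CPM in Zac1 libraries and 6.01 ± 1.08 CPM in EGFP libraries (SD, n = 3 each), a ratio of 3.17 and a log2 fold change of 1.67 (SE 0.13). The highest EGFP value belonged to EGFP 1, 1 of the libraries that stood apart, and without it the log2 fold change was 1.83. These are bulk samples, in which fewer cells of a type and less RNA per cell cannot be told apart.

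Rflna, which encodes refilin A, was all but silent. The gene lies on chr5:125003221-125012547, plus strand (ENSMUSG00000037962). It had 0 reads in each Zac1 library, against 0, 0 and 2 reads in EGFP libraries. A count of 0 allows up to 3 reads over the group, or 0.0583 CPM in the Zac1 libraries, and 3 reads in the EGFP libraries are 0.0671 CPM. Both groups were at or under that limit, so no ratio is given, and refilin transcripts in these cells were almost wholly Rflnb.

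**Figure D1:**
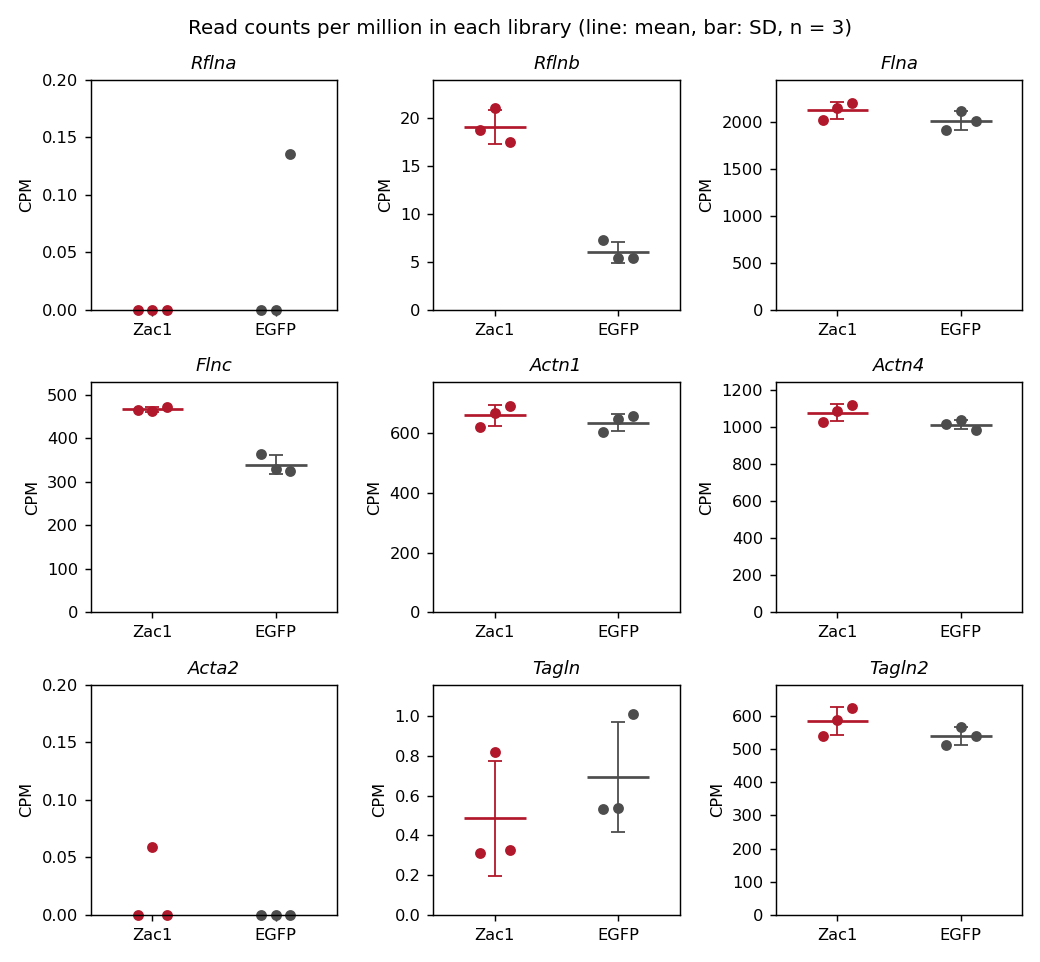
Library-scaled read counts (CPM) of the 9 genes in each library, with 1 panel and 1 linear axis from 0 per gene; Zac1 libraries are at the left in red and EGFP libraries at the right in grey, the line is the mean and the bar the SD (n = 3; not drawn for Rflna and Acta2, which had 2 reads and 1 read in all). The Rflnb and Flnc groups are separated, while the groups of Flna, Actn1, Actn4, Tagln and Tagln2 overlap.

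Flna, which encodes filamin A, the widely expressed filamin that refilins bind, was the most abundant of the 9 genes by read count and hardly differed between the groups. It lies on chrX:74223461-74249820, minus strand (ENSMUSG00000031328). Flna had 2025, 2147 and 2196 CPM in Zac1 libraries, against 1909.8, 2119 and 2011 CPM in EGFP libraries. The ranges overlapped, with EGFP 2 and EGFP 3 on either side of the lowest Zac1 library. The mean was 2122 ± 88.1 CPM in Zac1 libraries and 2013 ± 104 CPM in EGFP libraries (SD, n = 3 each), a log2 fold change of 0.08 (SE 0.05).

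Flnc, which encodes filamin C, the filamin enriched in striated muscle at Z-discs, stood higher in Zac1 libraries. It lies on chr6:29433256-29461883, plus strand (ENSMUSG00000068699). Flnc had 7454, 7864 and 8685 reads in Zac1 libraries, against 5471, 4890 and 4804 reads in EGFP libraries. Scaled to library size, it had 464, 462 and 472 CPM in Zac1 libraries, against 364, 328 and 325 CPM in EGFP libraries. The 3 Zac1 values lay close together and above every EGFP value, among which EGFP 1 was the highest. The mean was 466 ± 5.52 CPM in Zac1 libraries and 339 ± 21.99 CPM in EGFP libraries (SD, n = 3 each), a ratio of 1.37 and a log2 fold change of 0.46 (SE 0.05). Flnc exons are 58.4% GC, against a median of 49.4% over tested genes, and with fold changes corrected for GC content the log2 fold change was 0.38. The corresponding exon GC was 50.2% for Rflnb, whose log2 fold change with the same correction was 1.66.

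With reads divided by exon length, Flnc made up 18.7%, 17.7% and 17.7% of Flna and Flnc together in Zac1 libraries, against 16.02%, 13.4% and 13.9% in EGFP libraries. The Flnc share was therefore higher in every Zac1 library, at 18.02% ± 0.546 against 14.4% ± 1.39 in EGFP libraries (SD, n = 3 each). Per exon length, there were 2.02, 2.16 and 1.76 Rflnb for every 100 Flna and Flnc transcripts in Zac1 libraries, against 0.855, 0.588 and 0.619 in EGFP libraries. Refilin B transcripts thus stayed a small fraction of the transcripts of these filamins in both groups, and the Zac1 and EGFP values did not overlap.

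**Figure D2:**
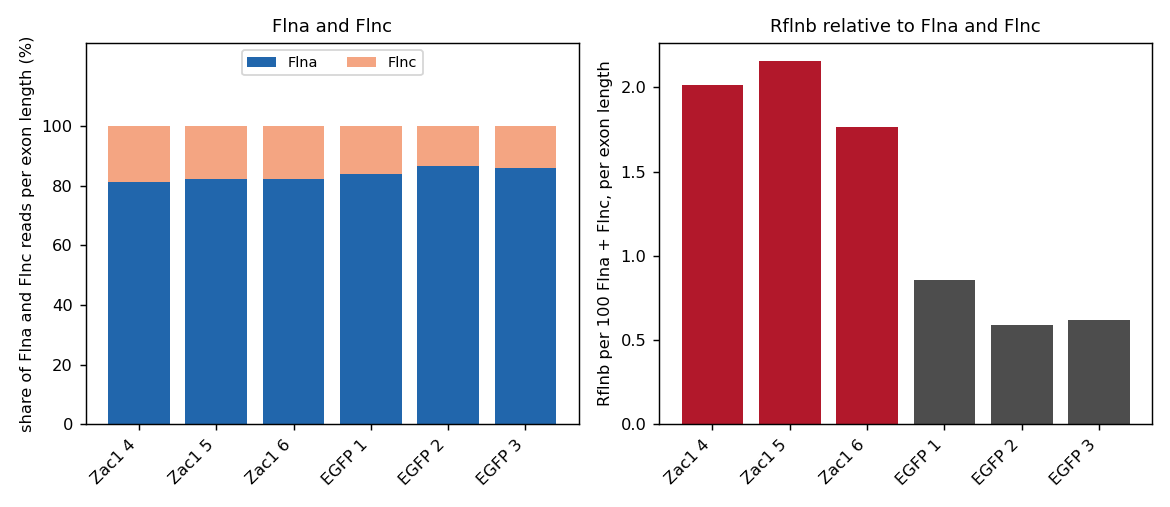
Left, the percent of Flna and Flnc reads per exon length that fell on each gene in each library, stacked to 100; right, Rflnb per 100 Flna and Flnc transcripts on the same per-length scale, with Zac1 libraries before EGFP libraries in both panels. Flnc takes 17.7% to 18.7% in Zac1 libraries and 13.4% to 16.02% in EGFP libraries, and Rflnb takes 1.76 to 2.16 in Zac1 libraries and 0.588 to 0.855 in EGFP libraries.

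The alpha-actinins overlapped between the groups. Actn1 (chr12:80167547-80260371, minus strand, ENSMUSG00000015143), the non-muscle alpha-actinin of stress fibres and focal adhesions, had 620.0, 666 and 692 CPM in Zac1 libraries, against 603, 647 and 657 CPM in EGFP libraries. Its mean was 659 ± 36.4 CPM in Zac1 libraries and 635 ± 28.7 CPM in EGFP libraries (SD, n = 3 each), with a log2 fold change of 0.05 (SE 0.05). Zac1 4, the lowest Zac1 library, lay below EGFP 2 and EGFP 3.

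Actn4 (chr7:28893248-28962340, minus strand, ENSMUSG00000054808), the other non-muscle alpha-actinin and the form tied to cell motility and podocyte structure, had 1030.1, 1088 and 1118 CPM in Zac1 libraries, against 1016, 1038 and 987 CPM in EGFP libraries. The groups met only at Zac1 4 and EGFP 2. The mean was 1079 ± 44.6 CPM in Zac1 libraries and 1014 ± 25.3 CPM in EGFP libraries (SD, n = 3 each), with a log2 fold change of 0.09 (SE 0.05) that was 0.04 after correction for GC content. Actn4 made up 60.0%, 59.6% and 59.3% of Actn1 and Actn4 together per exon length in Zac1 libraries, against 60.4%, 59.2% and 57.6% in EGFP libraries, so the balance of the pair overlapped too. Actn4 shares 316 bases with Capn12 on the opposite strand, which had at most 3 reads in a library. It also overlaps Gm44699 on the same strand over 22578 bases, and Gm44699 had 0 reads in every library.

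The muscle alpha-actinins were low or silent. Actn2 had 0 reads in every library. Actn3 had 7, 22 and 22 reads in Zac1 libraries, against 11, 3 and 8 reads in EGFP libraries, and the groups overlapped. Its log2 fold change was 0.99 (SE 0.49), and it was not among the genes past the adjusted threshold. Actn3 reached the mean count of 10 only through its reads in Zac1 libraries, so no p is given for it.

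Acta2, a marker of smooth muscle and of activated stellate cells, was not expressed at a measurable level. The gene lies on chr19:34241090-34255590, minus strand (ENSMUSG00000035783), and had 0, 1 and 0 reads in Zac1 libraries, against 0 reads in each EGFP library. Both groups lay at or under the limit of 3 reads.

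Tagln, which encodes transgelin (SM22-alpha), an early marker of smooth muscle, was near the floor in both groups. It lies on chr9:45929619-45936058, minus strand (ENSMUSG00000032085), and had 5, 14 and 6 reads in Zac1 libraries, against 8, 8 and 15 reads in EGFP libraries. The ranges overlapped, and the mean was 0.487 ± 0.291 CPM in Zac1 libraries and 0.695 ± 0.276 CPM in EGFP libraries (SD, n = 3 each). The ratio of summed reads was 0.701, with an exact 95% interval of 0.397 to 1.23 that covers counting error only. Leaving out 1 library moved the ratio between 0.461 (without Zac1 5) and 0.905 (without EGFP 3). From gene start to gene end, Tagln also shares 108 bases with Pcsk7 and 3627 bases with Gm48529. Both lie on the opposite strand, and each had more reads than Tagln in every library. Whether the counting used strand is not given in the sources used here. The overlaps may therefore have added reads to Tagln or taken reads from it, which was not tested.

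Tagln2, which encodes the transgelin found outside muscle, was expressed at a high level and overlapped between the groups. It lies on chr1:172500047-172507380, plus strand (ENSMUSG00000026547). Tagln2 had 541, 588 and 624 CPM in Zac1 libraries, against 512, 567 and 541 CPM in EGFP libraries. The mean was 584 ± 41.4 CPM in Zac1 libraries and 540.0 ± 27.6 CPM in EGFP libraries (SD, n = 3 each), a log2 fold change of 0.11 (SE 0.06). At least 99.8% of transgelin reads per exon length fell on Tagln2 rather than Tagln in every library. The third family member, the neuronal Tagln3, had 3, 2 and 0 reads in Zac1 libraries, against 3, 3 and 2 reads in EGFP libraries.

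Of the 9 genes, 6 reached the mean count of 10 and 3 (Rflna, Acta2 and Tagln) did not. Past an adjusted p of 0.05 were 2 of the 6, Rflnb and Flnc, both higher in Zac1 libraries, beside 3.78% of all tested genes; the genes were listed with this contrast known, and nothing is read from the count. The same 2 were the genes without overlap between the groups, beside 20.6% of all tested genes. All 6 fitted log2 fold changes were above 0, with a median of 0.10, where the median over all tested genes was -0.0016. The 5th and 95th percentiles over all tested genes were -0.26 and 0.48, so Flnc lay just inside that span and Rflnb outside it.

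**Figure D3:**
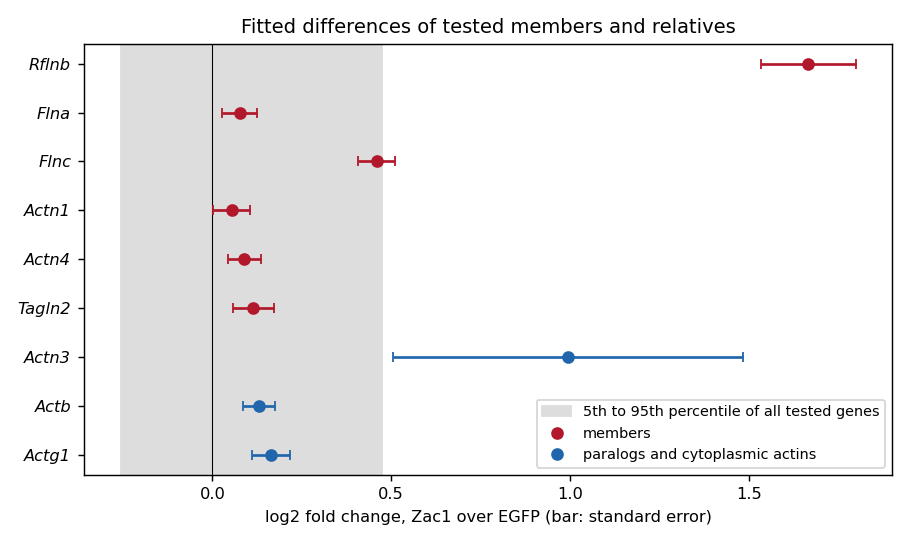
Fitted log2 fold changes, Zac1 over EGFP, with their standard errors for the 6 listed genes that reached the count minimum (red) and for Actn3, Actb and Actg1 (blue); the grey band spans the 5th to the 95th percentile of all tested genes. Rflnb lies at 1.67, outside the band, Flnc at 0.46 lies at its upper edge, and the other listed genes lie between 0.05 and 0.11.

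Levels were compared between genes as CPM per kilobase of exon. In Zac1 libraries Tagln2 averaged 281 ± 19.9, Flna 226 ± 9.37, Actn4 176 ± 7.27, Actn1 119 ± 6.59, Flnc 49.6 ± 0.587 and Rflnb 5.44 ± 0.501 CPM per kilobase (SD, n = 3). In EGFP libraries the same order held, with Tagln2 at 259 ± 13.2, Flna at 214 ± 11.1, Actn4 at 165 ± 4.13, Actn1 at 115 ± 5.19, Flnc at 36.1 ± 2.34 and Rflnb at 1.71 ± 0.308 CPM per kilobase (SD, n = 3). Neighbours in that order did not overlap within a group, and below them Tagln averaged 0.245 in Zac1 libraries and 0.349 in EGFP libraries, with Rflna and Acta2 at or near 0 and not told apart. The order depended on the length used: with the longest transcript in place of all exons, Actn4 passed Flna, at 278 against 251 in Zac1 libraries and 261 against 238 in EGFP libraries. Among the 12130 tested genes Tagln2 ranked 92 in Zac1 libraries and 108 in EGFP libraries. Rflnb ranked 6863 in Zac1 libraries and 9503 in EGFP libraries, past the middle of the tested genes in both. The cytoplasmic actin Actb, for scale, averaged 1127 ± 36.7 CPM per kilobase in Zac1 libraries and 1029 ± 42.9 CPM per kilobase in EGFP libraries (SD, n = 3 each).

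Within groups, libraries Zac1 4 and EGFP 1 were often the lowest. Among the 5 genes other than Rflnb that reached the count minimum, Zac1 4 was the lowest Zac1 library for 4 and EGFP 1 the lowest EGFP library for 3. Over all tested genes Zac1 4 was lowest of its group for 41.5% and EGFP 1 for 38.1%. In EGFP libraries, EGFP 1 was instead the highest value of Rflnb and Flnc, and EGFP 3 the lowest of Actn4. Without both libraries the log2 fold change was 1.84 for Rflnb and 0.52 for Flnc.

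**Figure D4:**
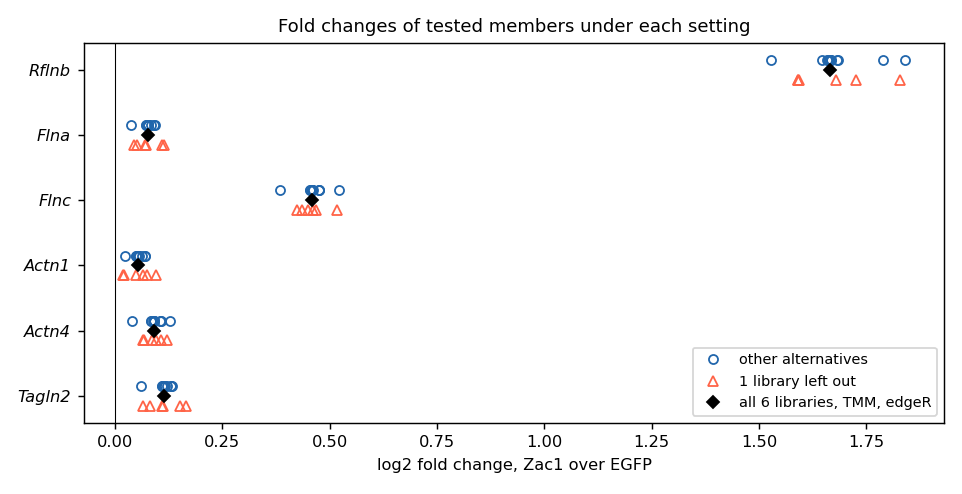
Log2 fold changes, Zac1 over EGFP, of the 6 listed genes that reached the count minimum, with all 6 libraries under TMM and edgeR (black diamonds), with 1 library left out (red triangles) and under the other alternatives (blue circles). All values are above 0; Rflnb runs from 1.53 to 1.84 and Flnc from 0.38 to 0.52, clear of the other 4 genes, which lie between 0.02 and 0.17.

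Genes whose pattern over the 6 libraries was most like that of Rflnb were Wnt7b, a secreted signalling protein (Pearson r = 0.997 on log2 CPM), Nptx1, a neuronal pentraxin (0.996), Palld, the bundling protein palladin (0.996), Socs7, a suppressor of cytokine signalling (0.995), and Plxna2, a semaphorin receptor (0.994), among 9909 genes whose mean count reached 50 and whose symbol is not that of a predicted gene, RIKEN clone or pseudogene. A correlation does not measure the size of a difference. The log2 fold change was 0.57 for Wnt7b, 7.60 for Nptx1, 0.43 for Palld, 0.37 for Socs7 and 0.23 for Plxna2, against 1.67 for Rflnb. Nptx1 had 0.133, 0 and 0 CPM in EGFP libraries and reached the mean count of 50 only through Zac1 libraries. Flnc correlated with Rflnb at r = 0.990, Actn4 at 0.723, Tagln2 at 0.516, Flna at 0.460 and Actn1 at 0.290. The 6 points are shared by all genes and fall into the 2 groups, so these values describe likeness and carry no p.

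Around the 9 genes, 201 other genes of the actin cytoskeleton were listed in 7 lists, of which 163 reached the count minimum. By edgeR's quasi-likelihood test, adjusted over all tested genes, 9 were higher (5.52%, beside 3.12% of all tested genes) and 1 was lower (0.613%, beside 0.668%) in Zac1 libraries. The 9 include Espn, which reached the count minimum only through its reads in Zac1 libraries. The lists were written with earlier results of these data known, so no excess is read from these shares. The median log2 fold change of the 163 was 0.05, with 105 above 0 and 58 below 0, beside 6009 and 6121 of all tested genes. Every Zac1 library exceeded every EGFP library for 35 of the 163, beside 1441 of the 12130 tested genes (11.9%). Every Zac1 library lay below every EGFP library for 4 of the 163, beside 1061 of the 12130. Most listed actin genes therefore did not pass the test, and the adjusted counts were 6 higher and 1 lower with DESeq2. They were 29 higher and 4 lower with voom run with quality weights for the libraries, called voom below.

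Among the 6 tested paralogs and actin isoforms 0 passed by edgeR's quasi-likelihood test, with a median log2 fold change of 0.15. At an unadjusted p under 0.05 there were 4, all higher in Zac1 libraries, beside 9.41% of all tested genes higher and 6.43% lower at that threshold, and the adjusted count was 0 with DESeq2, 0 with limma-trend and 4 with voom. Actg1, cytoplasmic gamma-actin, had 393, 417 and 439 CPM in Zac1 libraries, against 356, 376 and 383 CPM in EGFP libraries (log2 fold change 0.16, adjusted p = 0.118, edgeR). Actb, cytoplasmic beta-actin, had 2933, 2997 and 3126 CPM in Zac1 libraries, against 2636, 2767 and 2865 CPM in EGFP libraries (log2 fold change 0.13, adjusted p = 0.147, edgeR). For both, every Zac1 library was above every EGFP library, and both passed the threshold under voom, without a filter, and when Zac1 4 was left out.

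Of 31 tested bundling and crosslinking proteins, 3 rose and 1 fell, with a median log2 fold change of 0.06. Espn, which encodes espin, a bundler of parallel filaments in microvilli and stereocilia, had 25, 32 and 33 reads in Zac1 libraries, against 2, 1 and 0 reads in EGFP libraries. The ratio of summed Espn reads was 26.1 (exact 95% interval 8.64 to 129, counting error only). Espn reached the mean count of 10 only through its reads in Zac1 libraries, so no p is given for it, although it is 1 of the 3 counted as risen. Palld, the alpha-actinin partner palladin, rose to 46.8, 49.8 and 48.1 CPM in Zac1 libraries, against 37.6, 35.1 and 34.5 CPM in EGFP libraries (log2 fold change 0.43, SE 0.07, adjusted p = 0.00189, edgeR). The Palld call held under every alternative. Marcks, which binds the membrane and actin, fell to 84.9, 85.9 and 81.7 CPM in Zac1 libraries, against 96.9, 100.9 and 98.4 CPM in EGFP libraries (log2 fold change -0.23, SE 0.05, adjusted p = 0.0254, edgeR). GC correction, or leaving out EGFP 2, EGFP 3, Zac1 5 or Zac1 6, ended the Marcks call, with adjusted p of up to 0.132.

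Of 45 tested genes of actin nucleation, capping and turnover, 4 rose and 0 fell in edgeR, with a median log2 fold change of 0.03. At an unadjusted p under 0.05, 5 were higher and 2 lower, beside 9.41% and 6.43% of all tested genes, and the adjusted count of lower genes was 0 with DESeq2, 0 with limma-trend and 2 with voom. Pfn2, a profilin that loads actin monomers, had 6.66, 5.35 and 5.93 CPM in Zac1 libraries, against 2.20, 2.89 and 2.57 CPM in EGFP libraries (log2 fold change 1.23, SE 0.18, adjusted p = 0.00113, edgeR). Fmnl1, a formin, had 3.30, 2.996 and 3.05 CPM in Zac1 libraries, against 1.27, 1.41 and 1.28 CPM in EGFP libraries (log2 fold change 1.23, SE 0.22, adjusted p = 0.00508, edgeR). Both calls held under every alternative that tested them. Tmsb10, the monomer-binding thymosin beta 10, had a log2 difference of 0.27 (SE 0.06; edgeR adjusted p = 0.0262), lost with GC correction and without EGFP 3 or Zac1 6 (adjusted p of up to 0.182). Limk1, the kinase that phosphorylates cofilin, had a log2 difference of 0.41 (SE 0.10; edgeR adjusted p = 0.0433), lost with DESeq2, GC correction or a count minimum of 50 and whichever library was left out (up to 0.211).

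The filamin-binding list had 13 tested genes and a median log2 fold change of 0.01, and 1 rose. This was Pak1, a Rac and Cdc42 effector kinase that binds filamin A, with 29.4, 29.4 and 27.9 CPM in Zac1 libraries, against 22.2, 21.6 and 24.0 CPM in EGFP libraries (log2 fold change 0.35, SE 0.08, adjusted p = 0.0205, edgeR). Leaving out EGFP 2 or Zac1 5 ended the Pak1 call, with adjusted p of up to 0.123. Among 17 tested small GTPase and SRF/MRTF genes 1 rose, Srf, serum response factor itself, with 44.5, 50.3 and 51.4 CPM in Zac1 libraries, against 38.7, 41.8 and 39.7 CPM in EGFP libraries (log2 fold change 0.28, SE 0.07, adjusted p = 0.0449, edgeR). The Srf call was lost with DESeq2, with limma-trend, with a count minimum of 50 and when any library but Zac1 4 was left out, with adjusted p of up to 0.228. It was also lost with GC correction, under which the log2 fold change was 0.16 (adjusted p = 0.381, edgeR).

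Stress fibre contractile genes (15 tested, median log2 fold change 0.01) and focal adhesion and LIM-domain genes (36 tested, median 0.07) had 0 calls in edgeR. At an unadjusted p under 0.05, 3 contractile genes and 9 focal adhesion and LIM-domain genes were higher in Zac1 libraries and 0 were lower, beside 9.41% higher and 6.43% lower over all tested genes. Adjusted calls were 0 in both lists with DESeq2 and with limma-trend, and 2 and 8 with voom, all higher. The smallest p among them belonged to Smtn, smoothelin (log2 fold change 0.20, adjusted p = 0.106, edgeR), Tpm1, a tropomyosin (0.15, adjusted p = 0.128, edgeR), Tns2, a tensin (0.26, adjusted p = 0.0550, edgeR), and Fhl3, a LIM-only protein (0.31, adjusted p = 0.0712, edgeR).

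**Figure D5:**
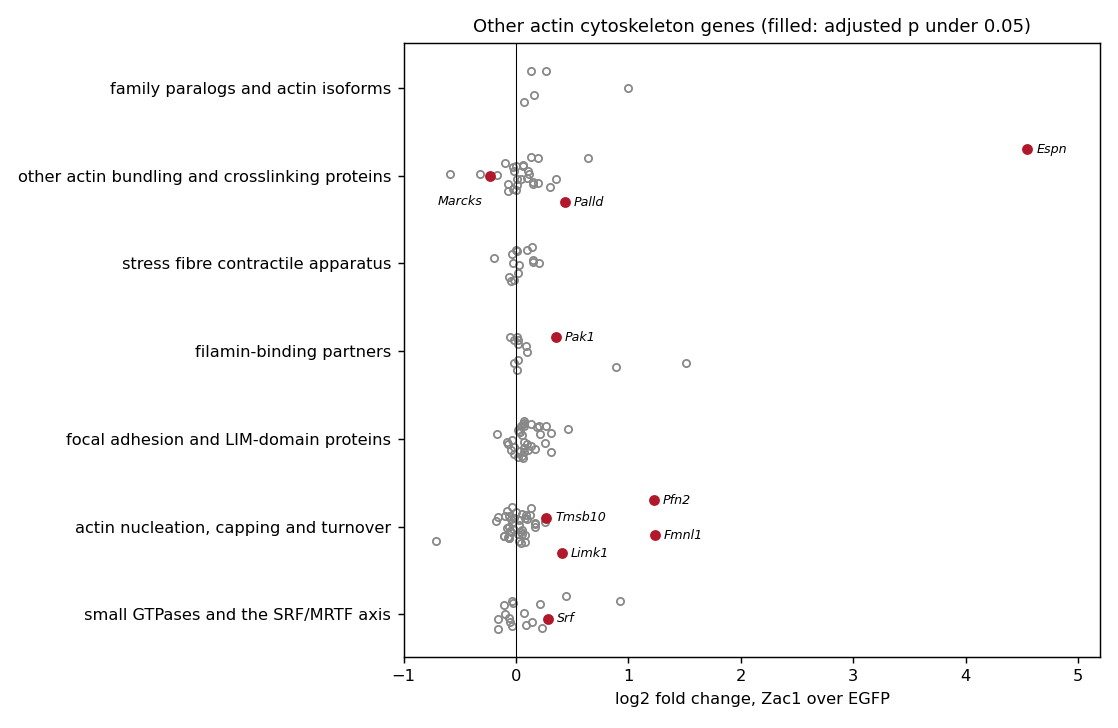
Log2 fold changes, Zac1 over EGFP, of 161 of the 163 other listed actin genes that reached the count minimum, by list; each circle is 1 gene and red filled circles passed an adjusted p of 0.05 in edgeR's quasi-likelihood test. The 9 named genes passed, 8 to the right of 0 and Marcks to the left, while most others lie close to 0.

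Markers of other liver cell types were read beside these results, since Acta2, Tagln and Flnc also mark muscle-like cells. Of 16 stellate, myofibroblast and smooth muscle markers 3 reached the count minimum, and Lrat, Dcn and Lum had 0 reads in every library. Their summed level was 1176 to 1261 CPM in Zac1 libraries and 1123 to 1163 CPM in EGFP libraries, almost all of it Vim. Without Vim it was 11.5 to 12.6 CPM in Zac1 libraries and 10.1 to 11.6 CPM in EGFP libraries. Most of that remainder was Mylk, which averaged 8.39 CPM in Zac1 libraries and 9.58 CPM in EGFP libraries. Mylk and Myh11 averaged lower in Zac1 libraries, and the list's other genes with reads averaged higher, many on few reads. Among these, Col1a1 averaged 1.89 CPM in Zac1 libraries against 0.650 CPM in EGFP libraries, and Cnn1 0.839 against 0.223 CPM. The list's 1 call by edgeR was Col1a1, higher in Zac1 libraries, as were 3.12% of all tested genes. It had 28, 28 and 42 reads in Zac1 libraries, against 7, 8 and 14 reads in EGFP libraries. Col1a1 reached the mean count of 10 only through its reads in Zac1 libraries, so no p is given for it. Summed endothelial markers (8 listed, 3 at 0) ran from 0.747 to 1.25 CPM in Zac1 libraries and from 0.537 to 0.878 CPM in EGFP libraries. Summed macrophage markers (8 listed, 3 at 0) ran from 1.88 to 2.56 CPM in Zac1 libraries and from 2.16 to 2.48 CPM in EGFP libraries. The 6 cholangiocyte markers summed to 757 to 788 CPM in Zac1 libraries and 780.2 to 822 CPM in EGFP libraries. The 20 hepatocyte markers summed to 4995 to 5418 CPM in Zac1 libraries and 4895 to 5226 CPM in EGFP libraries, mostly Krt8 and Krt18. Whether differences in cell state or cell makeup take part in the Rflnb and Flnc values was not tested.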

How the data were processed

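Gene counts came from 1 deposited table with a column for each of 6 polyA RNA-seq libraries, 3 of AML12 cells transfected with Zac1 and 3 with EGFP. Per the submitters' processing notes, the authors used FastQC, STAR, HTSeq and DESeq2; no version, genome build, annotation or strand setting was given in the sources used here. A directional kit was applied to DNase-treated RNA, per the labels' protocols. The deposited table is called normalized, but its values are whole numbers with unequal library totals and 0 whole numbers from 1 to 40 absent in any library, so they were treated as unscaled read counts.

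IDs were matched to GENCODE M21 (GRCm38) for symbols, coordinates, exon lengths and GC content; 49326 of 49585 matched, and 27821 genes were at 0 in every library. Genes whose mean count reached 10 (12130) were scaled by TMM and tested in edgeR 4.0.16 (R 4.3.3; quasi-likelihood test, two-sided, prior count 0.125), with Benjamini-Hochberg adjustment over all of them and a threshold of 0.05. Standard errors are the log2 fold change over the square root of F. CPM uses TMM-scaled library sizes. Ratios of few reads carry exact 95% intervals (Clopper-Pearson), which, like the limit of 3 reads, cover counting error only. Levels between genes are CPM per kilobase of exon. Alternatives were other scalings, count minimums and prior counts, DESeq2 1.42.0, limma 3.58.1 (trend, and voom with library quality weights), a robust variance, GC offsets and left-out libraries. The steps were tested on simulated data. Promoter windows are RefSeq's (GRCm38.p6), found for 7 of the 9 genes.

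The 9 genes, the 7 lists and the marker lists were chosen with earlier results of these data known. Named are all 9 genes; up to 4 genes per list past the test by p, or the 2 with the smallest p where none passed; the paralogs Actn2, Actn3 and Tagln3 with Actb and Actg1; the 5 genes most like Rflnb; and Plagl1. Some genes that this rule names are not reported here.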

Additional observations from a re-analysis of the deposited data

How the results depend on the processing

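The log2 fold changes of Rflnb, Flna, Flnc, Actn1, Actn4 and Tagln2 were above 0 under all 18 alternative fits that kept them, and Rflnb and Flnc moved least in proportion: Rflnb ran from 1.59 to 1.83 with 1 library left out and Flnc from 0.42 to 0.52. With GC correction Flnc stood at 0.38 and Actn4 at 0.0399. With the longest transcript as length, levels in Zac1 and EGFP libraries were 251 and 238 CPM per kilobase for Flna, 177 and 170.1 for Actn1, 278 and 261 for Actn4, and 368 and 340.5 for Tagln2, and Flnc stood at 51.6 in Zac1 libraries. Counts of calls moved far more. Over all genes, 190 were higher and 51 lower with a count minimum of 50, 731 and 248 with no filter, 797 and 500 with voom, 853 and 608 without EGFP 1 and Zac1 4 together, and 46 lower with GC correction; with 1 library left out, 187 to 584 were higher and 19 to 379 lower. Among the other listed actin genes, 4 were higher with a count minimum of 50, 24 with no filter, 29 higher and 4 lower with voom, 5 and 0 with GC correction, and 35 and 7 without EGFP 1 and Zac1 4. With 1 library left out, 5 (without EGFP 3, Zac1 5 or Zac1 6) to 25 (without Zac1 4) were higher and 0 (without EGFP 2, EGFP 3, Zac1 5 or Zac1 6) to 6 (without Zac1 4) were lower. The cause of these shifts was not tested. No paired analysis was made, because the replicate numbers run on across the groups and do not show whether Zac1 and EGFP libraries were prepared in pairs. Depth limits what can be said of Rflna, Acta2 and Tagln, and 3 libraries a group limit the precision for differences as small as those of Flna, Actn1, Actn4 and Tagln2.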

Other observations

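Some muscle-type or leukocyte-type actin genes of the lists lay below the count minimum yet had more reads in Zac1 libraries. They were chosen after their values were seen and carry no test. How many listed genes of these types went each way was not counted. Of those that reached the count minimum, Lcp1, Tmod4 and Xirp2 had log2 fold changes of -0.32, -0.71 and -0.17. Actn3 and Itgb2 had 0.99 and 1.51, and none of these passed the adjusted threshold. Cnn1, calponin of smooth muscle, had 12, 19 and 12 reads in Zac1 libraries, against 5, 2 and 3 reads in EGFP libraries, a ratio of 3.74 (exact 95% interval 1.85 to 8.34, counting error only). Fhl1, a LIM-only protein of muscle, had 12, 9 and 9 reads in Zac1 libraries, against 1, 0 and 0 reads in EGFP libraries, a ratio of 26.1 (4.33 to 1063). Coro1a, a coronin of leukocytes, had 6, 23 and 15 reads in Zac1 libraries, against 0, 0 and 1 reads in EGFP libraries, a ratio of 38.2 (6.51 to 1544). In each of these genes every Zac1 library had more reads than every EGFP library, while Tagln and Acta2 in the same libraries overlapped between the groups.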
